A study of Homo sapiens with 4 samples.

Results

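The genes described here are 72 genes, read by 79 probe sets, whose signal was at least 2-fold above the pLKO control array in both shDCD_clone_1 and shDCD_clone_2 cells, out of 19775 genes and 41097 probe sets that the array annotation assigns to a single gene. A probe set is the group of short probes that together read a transcript on the array. The members were chosen on the very values given below: deposited intensities were put on the log2 scale, quantile normalized over all 4 arrays and floored at an intensity of 16, and a probe set also needed a deposited intensity of at least 100 in both clones. Of the 6556 probe sets of 4741 genes bright enough in both clones, called eligible below, 1.33% passed the 2-fold threshold. The 8 further probe sets of TXNIP, PPP3CA, GATA3, CDK6 and CAMK2D that also passed were set aside by the selection. The height of the members in clones 1 and 2 is therefore a description of how they were picked and was not tested. The clone 3 array did not choose the members and is given apart, but all 3 comparisons share the single pLKO array, so a low reading on that array enters each of them.

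MDA-MB-361 is an established HER2-positive human breast cancer line with a luminal character. A single array each was hybridized with RNA from shDCD_clone_1, shDCD_clone_2 and shDCD_clone_3 cells, which carry different short hairpin RNAs against the DCD transcript in the lentiviral pLKO-puro vector, and from pLKO cells, which carry the control vector. All 4 lines hold the same vector backbone, and the labels call the hairpin lines clones, while the study's text uses both clones and pools. No group has a replicate array, so no value below carries an error and no p-value is given. DCD, a secreted peptide of sweat glands, read 7 in clone 1, 6 in clone 2, 2.7 in clone 3 and 2 in pLKO, all under the floor, so the arrays do not check the knockdown.

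The arrays differed in RNA quality and brightness. The array reads ACTB and GAPDH near both ends of the transcript, and the 3′ signal exceeds the 5′ signal where RNA is degraded or labelling stops early. For ACTB the 3′ to 5′ ratio was 9.67 in clone 1, 2.58 in clone 2, 42.6 in clone 3 and 5.29 in pLKO. For GAPDH it was 2.18 in clone 1, 1.02 in clone 2, 13.1 in clone 3 and 1.09 in pLKO. Clones 1 and 2 thus lay nearer to pLKO than clone 3 did, with clone 1 above pLKO and clone 2 below it. The median intensity was 20 in clone 1, 24.7 in clone 2, 13.4 in clone 3 and 20.6 in pLKO. All 6 luminal epithelial markers examined (KRT8, KRT18, KRT19, EPCAM, CDH1 and ERBB2) read above 100 on every array, with summed intensities of 22607 in clone 1, 36782 in clone 2, 9221 in clone 3 and 23570.1 in pLKO. The 2 measured basal markers were under 16 on all arrays, and the endothelial and leukocyte markers stayed under 100. Of the 5 fibroblast markers, 1 reached 100 on each array. In a bulk sample, fewer cells of a type and less RNA per cell cannot be told apart.

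Some of the members, not only leading ones, have known roles in epithelial cells, which are given here as background. Enzymes of the UGT2B family attach glucuronic acid to steroid hormones and so prepare them for removal, while steroid sulfatase takes sulfate off stored steroids and makes them available again. Glandular cells also carry a coat of lipid-anchored surface proteins, such as PSCA, CD24 and the CEACAM proteins, and release soluble proteins such as PIP and BPIFB1. Luminal breast cells respond to paracrine ligands and cytokines through membrane receptors whose signals run through PI3 kinase and are damped by proteins of the SOCS family.

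Promoter sequences show how unlike the starts of the leading members are. RefSeq annotation (GRCh38.p14) held promoters for 55 of the 72 member genes, and the 250 bases before the start are printed for 4 leading members that have a single annotated start: BPIFB1 (chr20:33282964-33283213, plus strand), UGT2B15 (chr4:68670653-68670902, minus strand), KITLG (chr12:88580472-88580721, minus strand) and MARCKS (chr6:113857095-113857344, plus strand). Capitals mark matches to the motifs listed after the sequences.
BPIFB1: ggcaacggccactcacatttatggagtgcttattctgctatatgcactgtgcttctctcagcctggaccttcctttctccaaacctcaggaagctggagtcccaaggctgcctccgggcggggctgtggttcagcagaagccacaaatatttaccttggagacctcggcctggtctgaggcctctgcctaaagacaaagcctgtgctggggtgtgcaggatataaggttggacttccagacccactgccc
UGT2B15: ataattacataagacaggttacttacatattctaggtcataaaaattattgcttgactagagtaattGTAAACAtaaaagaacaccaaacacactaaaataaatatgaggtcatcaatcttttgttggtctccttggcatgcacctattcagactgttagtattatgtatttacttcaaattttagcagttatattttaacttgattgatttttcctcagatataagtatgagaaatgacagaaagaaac
KITLG: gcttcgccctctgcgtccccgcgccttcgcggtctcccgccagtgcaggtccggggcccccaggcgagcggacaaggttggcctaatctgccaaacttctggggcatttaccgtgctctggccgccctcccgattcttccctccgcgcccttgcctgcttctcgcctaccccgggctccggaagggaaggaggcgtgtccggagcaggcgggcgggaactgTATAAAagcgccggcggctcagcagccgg
MARCKS: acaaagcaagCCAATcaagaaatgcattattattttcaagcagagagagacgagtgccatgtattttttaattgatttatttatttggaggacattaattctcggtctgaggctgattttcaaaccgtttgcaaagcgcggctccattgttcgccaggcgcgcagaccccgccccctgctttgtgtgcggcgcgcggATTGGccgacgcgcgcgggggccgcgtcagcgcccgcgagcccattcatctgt

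The UGT2B15 window held 28.4% G and C, against 55.2% for BPIFB1, 52.8% for MARCKS and 69.2% for KITLG, and the median over the 55 members was 64.4%, against 65.2% over the 3985 eligible genes with a promoter. UGT2B15 had a GTAAACA match 183 bases before its start, KITLG a TATAAA match 29 bases before its start, and MARCKS CCAAT matches 53 and 240 bases before its start. Searched on both strands, the FOXO core GTAAACA occurred in 2 member promoters (3.64%, UGT2B15 and PCGF5), against 2.81% of eligible and 3.66% of all 27305 promoters. The GATA letters AGATAA occurred in 6 members (10.9%), against 5.97% of eligible and 11.1% of all promoters, and the TATA letters TATAAA in 7 (12.7%), against 8.01% and 13.0%. CCAAT occurred in 22 members (40%), against 43.1% of eligible and 37.0% of all promoters. The E-box CACGTG was found in 3 members (5.45%), against 12.1% and 7.73%. Neither the CRE letters TGACGTCA, present in 3.91% of eligible and 2.03% of all promoters, nor the palindromic oestrogen response element, present in 0% and 0.0513%, occurred in a member window. A match describes the letters only.

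Across the set, the deposited intensity of the member probe sets had a median of 200.6 in clone 1, 437 in clone 2, 62 in clone 3 and 95 in pLKO. The members spanned a wide range of brightness, with pLKO intensities between 5.8 and 2380, and 43 of the 79 probe sets read under 100 in pLKO. The median pLKO intensity over all eligible probe sets was 297. The selection set no minimum in pLKO and favours low readings there, and the share under 100 was not counted over eligible probe sets. The median log2 difference from pLKO was 1.46 in clone 1 and 1.31 in clone 2, against 0.14 and 0.04 over all eligible probe sets. BPIFB1 alone had its pLKO value at the floor, so its fold is a lower bound, and that of UGT2B28 lay just above the floor. A 3-fold difference in both clones was reached by 13 probe sets of 12 genes, and a 4-fold difference by 8 probe sets of 7 genes. At the edge of the selection, TMEM150C (2.29-fold in clone 1 and 2.00-fold in clone 2), MISP (2.23-fold and 2.00-fold) and 1 MYH14 probe set (2.19-fold and 2.01-fold) lay just inside. TRIM24 (3.78-fold in clone 1 and 1.997-fold in clone 2), CACNG4 (3.34-fold and 1.99-fold) and SLC39A8 (1.99-fold and 2.24-fold) lay just outside.

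**Figure D1:**
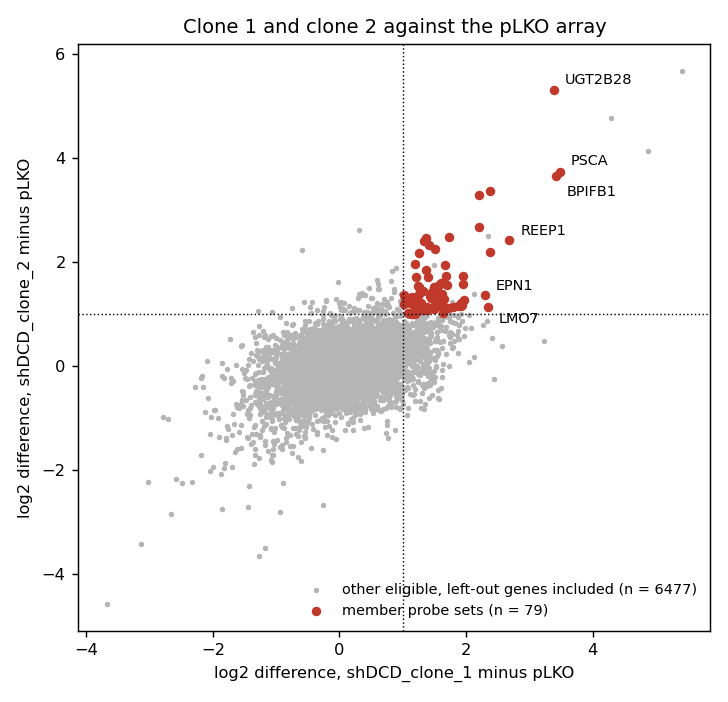
Each point is an eligible probe set (n = 6556), with its log2 difference from the pLKO array in clone 1 on the horizontal axis and in clone 2 on the vertical axis, and the dotted lines mark 2-fold. The 79 member probe sets (red) fill the upper right corner by construction, and UGT2B28, PSCA and BPIFB1 lie farthest out among them.

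The counts under other scalings use the same intensities that chose the members, so they show the effect of scaling and are not independent support. All 79 member probe sets also read above pLKO in both clones before any normalization, where 19.6% of eligible probe sets did. A 2-fold ratio of the deposited intensities in both clones was held by 31 of them (29 genes), against 1.07% of eligible probe sets, since all 79 reached it in clone 2 and 31 in clone 1. After median centring in place of quantile normalization, all 79 were still above pLKO in both clones and 36 reached 2-fold in both. The scaling shifts every gene: the median of all eligible probe sets in clone 1 was 0.14 on the log2 scale with quantile normalization, -0.47 as deposited and -0.43 with median centring, and in clone 2 it was 0.04, 0.45 and 0.18 in the same order. In deposited intensity clone 2 was brighter than clone 1 for 77 of the 79 probe sets, while after normalization the fold was larger in clone 1 for 48 and in clone 2 for 31. The medians of all eligible probe sets leaned the same way, higher in clone 2 as deposited and higher in clone 1 after quantile normalization. These counts were not made over the eligible probe sets, so they do not set the members apart.

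The steroid, lipid and sugar metabolism group held 10 members, with median folds of 2.72 in clone 1 and 3.13 in clone 2. UGT2B28 read 149 in clone 1, 1176 in clone 2, 2.5 in clone 3 and 17.4 in pLKO, which was 10.5-fold above pLKO in clone 1 and 39.6-fold in clone 2 after normalization. Its pLKO value lay under the median of that array and just above the floor, so the size of these folds is uncertain. As deposited, the ratios to pLKO were 8.56 in clone 1 and 67.6 in clone 2. UGT2B15, which acts on androgens, was read by 2 member probe sets, the first with 181 in clone 1, 755 in clone 2, 37.8 in clone 3 and 46.3 in pLKO. The second gave 284 in clone 1, 1273 in clone 2, 16.9 in clone 3 and 88.5 in pLKO. Clones 1 and 2 stood apart from the other arrays on all 3 probe sets, and clone 2 exceeded clone 1 each time, with folds of 5.19 and 10.3 on the first UGT2B15 probe set and 4.60 and 9.77 on the second. In clone 3 the first UGT2B15 probe set was 1.56-fold above pLKO after normalization and the second 2.94-fold below it. These probe sets carry the suffix that marks probes shared with related transcripts, and UGT2B28 and UGT2B15 lie near each other on chromosome 4 with 4 genes between them, so their signals cannot be fully told apart. The other UGT2B genes with a single-gene probe set, UGT2B17 and UGT2B4, stayed at or under 21.7 on every array, as did the remaining UGT2B15 probe set.

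STS, the steroid sulfatase, read 203 in clone 1, 413 in clone 2, 19 in clone 3 and 96.8 in pLKO, which was 3.04-fold above pLKO in clone 1 and 3.00-fold in clone 2. A further STS probe set with enough signal gave 147 in clone 1, 221 in clone 2, 20.2 in clone 3 and 89 in pLKO, again with clones 1 and 2 above pLKO and clone 3 below it. CROT, the peroxisomal carnitine octanoyltransferase that hands shortened fatty acids on for export, gave 105 in clone 1, 205 in clone 2, 59.2 in clone 3 and 41.7 in pLKO, and was higher than pLKO on all 3 hairpin arrays. SLC35D1, a transporter that brings UDP-glucuronic acid into the endoplasmic reticulum, where UGT2B enzymes use it, read 155 in clone 1, 229 in clone 2, 46.4 in clone 3 and 77 in pLKO (2.81-fold and 2.14-fold in clones 1 and 2). PPT1, the lysosomal enzyme that removes palmitate from proteins, was among the brightest members, with 1344 in clone 1, 3892 in clone 2, 585 in clone 3 and 852 in pLKO. Also in the group were NDST1 and HS6ST3, which add sulfate to heparan chains, CRYM, which binds thyroid hormone, and the lipid transfer protein BLTP2, with folds between 2.10 and 3.27 in the 2 clones. HS6ST1, the other enzyme of the heparan sulfation family with an eligible probe set, differed from pLKO by 0.06 in clone 1 and 0.12 in clone 2 on the log2 scale, and SULT1A1, which puts sulfate on phenols and steroids, by 0.09 and 0.15 on 1 of its eligible probe sets and by -0.28 and 0.09 on the other. SULT2B1, a sulfotransferase of cholesterol and related steroids, had larger log2 differences, 1.67 in clone 1 and 0.67 in clone 2, and passed 2-fold in clone 1 only.

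Proteins of glandular and surface epithelium, some secreted or on the cell surface and others inside the cell, made up 12 members, with median folds of 2.44 in clone 1 and 3.11 in clone 2. PSCA, a lipid-anchored surface protein, had the largest smaller fold of the whole set, with 1429 in clone 1, 3530.2 in clone 2, 37.4 in clone 3 and 194 in pLKO. Clones 1 and 2 were 11.2-fold and 13.2-fold above pLKO, and clone 3 was 2.42-fold below it. BPIFB1, a secreted protein of airway and salivary mucosa, read 148 in clone 1, 349 in clone 2, 4 in clone 3 and 5.8 in pLKO, so that it was at least 10.7-fold higher in clone 1 and at least 12.6-fold higher in clone 2 and not above the floor on the other 2 arrays. PIP, a secreted apocrine protein, gave 172 in clone 1, 672 in clone 2, 39.1 in clone 3 and 92.4 in pLKO (2.66-fold and 5.02-fold in clones 1 and 2).

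Adhesion and surface proteins were among the brightest of this group. ALCAM, an adhesion molecule of the immunoglobulin family, was read by 2 member probe sets that moved alike, with 1288 in clone 1, 2803 in clone 2, 320.1 in clone 3 and 711 in pLKO on the first and 1313 in clone 1, 2443 in clone 2, 323 in clone 3 and 723 in pLKO on the second. CEACAM6 read 3511 in clone 1, 7121 in clone 2, 687 in clone 3 and 2380.2 in pLKO, the highest control level in the set, for folds of 2.37 in clone 1 and 2.91 in clone 2. Its other eligible probe set gave 1127 in clone 1, 4686 in clone 2, 97.7 in clone 3 and 1284 in pLKO, and thus passed 2-fold in clone 2 only, on the normalized scale (log2 differences of 0.59 in clone 1 and 1.65 in clone 2). CEACAM5 likewise passed 2-fold in clone 2 only, with 179 in clone 1, 773 in clone 2, 30.2 in clone 3 and 192 in pLKO and log2 differences of 0.47 in clone 1 and 1.51 in clone 2.

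CD24 was a member through 1 of its 6 eligible probe sets. The member probe set gave 1684 in clone 1, 3889.8 in clone 2, 1529 in clone 3 and 1386 in pLKO, whereas the brightest of its 5 other eligible probe sets by pLKO intensity gave 6138 in clone 1, 9888 in clone 2, 3588 in clone 3 and 7605 in pLKO, a log2 difference of 0.37 in clone 1 and 0.49 in clone 2. All 6 lay above pLKO after normalization in both clones. KRT8, a keratin of simple epithelia and also one of the luminal markers, read 3061 in clone 1, 4964 in clone 2, 938 in clone 3 and 2212 in pLKO on a probe set that can share probes with related keratin transcripts, with folds of 2.26 in clone 1 and 2.02 in clone 2.

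CALML5, a calmodulin-like protein of skin and other epithelia, gave 546 in clone 1, 1711 in clone 2, 20.2 in clone 3 and 375 in pLKO, so clones 1 and 2 stood above pLKO (2.32-fold and 3.28-fold) and clone 3 stood 9.58-fold below it. CLIC3, an intracellular chloride channel protein, showed the same order, with 153 in clone 1, 654 in clone 2, 13 in clone 3 and 85.3 in pLKO. CSTA, which inhibits cysteine proteases in epithelia, was 2.39-fold and 4.51-fold above pLKO in clones 1 and 2 and 3.21-fold above it in clone 3. FXYD3, a modulator of the sodium pump, and the calpain protease CAPN9 completed the group, with folds between 2.10 and 2.44 in the 2 clones. The other eligible FXYD3 probe set, brighter in pLKO (849), had log2 differences of 0.61 in clone 1, 1.47 in clone 2 and -2.54 in clone 3. A further CAPN9 probe set, too dim in clone 1 to be eligible, had 0.04, 1.32 and -1.92 in the same order.

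Endoplasmic reticulum proteins, pumps and exporters numbered 6. REEP1, which shapes tubules of the endoplasmic reticulum, read 159.9 in clone 1, 261 in clone 2, 43.5 in clone 3 and 31.4 in pLKO, and its folds over pLKO were 6.43 in clone 1, 5.35 in clone 2 and 2.63 in clone 3. SLC40A1 (ferroportin), the exporter of iron from cells, gave 702 in clone 1, 1412 in clone 2, 254 in clone 3 and 501 in pLKO, with folds of 2.28 and 2.08 in clones 1 and 2. ATP2A3, a calcium pump of the endoplasmic reticulum, gave 175 in clone 1, 614 in clone 2, 2.9 in clone 3 and 111 in pLKO, so that clone 3 was at the floor and at least 5.54-fold below pLKO. The disulfide isomerase family protein ERP27, the transport protein BCAP29 and the nuclear pore protein NUP62 had folds between 2.12 and 3.79. ERP27 and ARHGDIB are neighbouring genes on chromosome 12, and PKIA and ZC2HC1A on chromosome 8. These were the only 2 adjacent pairs among the 70 members that could be placed.

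**Figure D2:**
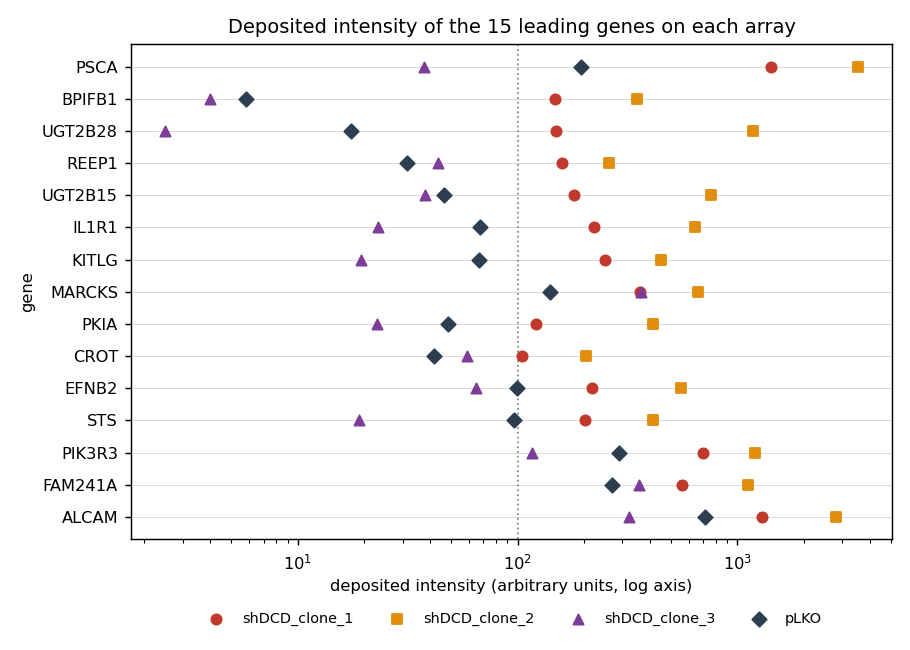
Deposited intensity (arbitrary units, log axis) of the 15 genes with the largest smaller fold of clones 1 and 2 over pLKO, with 1 point per array, and a dotted line at 100, the minimum required in clones 1 and 2. Clone 2 is rightmost for every gene, and clone 3 (triangles) lies left of pLKO (diamonds) for 11 of the 15, MARCKS, CROT, REEP1 and FAM241A being the others.

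Receptors, ligands and signalling proteins made up 12 members, with median folds of 2.89 in clone 1 and 2.93 in clone 2. IL1R1, the signalling receptor of interleukin 1, read 224 in clone 1, 639.7 in clone 2, 23.2 in clone 3 and 67.3 in pLKO (4.62-fold and 6.37-fold in clones 1 and 2). KITLG, the ligand of the KIT receptor, read 249.6 in clone 1, 450.4 in clone 2, 19.5 in clone 3 and 66.9 in pLKO (5.20-fold and 4.55-fold). Both genes lay above pLKO in clones 1 and 2 and below it in clone 3. EFNB2, a membrane-bound ligand of Eph receptors, was read by 2 member probe sets, with 219 in clone 1, 552 in clone 2, 64.9 in clone 3 and 99.6 in pLKO on the first and 189 in clone 1, 327 in clone 2, 73.4 in clone 3 and 88.5 in pLKO on the second. The only other ephrin gene with an eligible probe set, EFNA1, differed from pLKO by 0.67 in clone 1 and 0.64 in clone 2 on the log2 scale. ACKR3, a receptor that scavenges chemokines, was 2.38-fold and 2.88-fold above pLKO.

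PIK3R3, a regulatory subunit of PI3 kinase, gave 701 in clone 1, 1202 in clone 2, 116 in clone 3 and 289 in pLKO, for folds of 3.85 in clone 1, 2.98 in clone 2 and 1.01 in clone 3. The subunit gene PIK3R1 had log2 differences of 0.86 in clone 1 and 0.33 in clone 2 on its brightest probe set and did not reach 2-fold in either. SOCS2, a feedback inhibitor of cytokine signalling, gave 216 in clone 1, 983 in clone 2, 27.6 in clone 3 and 124 in pLKO, and none of the eligible probe sets of CISH, SOCS4 and SOCS7 reached 2-fold in both clones. PKIA, an inhibitor of protein kinase A, had 2 member probe sets, with 121 in clone 1, 411 in clone 2, 23 in clone 3 and 48.1 in pLKO on the first and 384 in clone 1, 1408 in clone 2, 105 in clone 3 and 209 in pLKO on the second. Its relative PKIB ran the other way, with 55.7 in clone 1, 330.5 in clone 2, 68.4 in clone 3 and 437 in pLKO.

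IGFBP5, a secreted binding protein of insulin-like growth factors, showed the widest gap between clone 3 and the others. Its member probe sets gave 449 in clone 1, 740.3 in clone 2, 8.7 in clone 3 and 231 in pLKO, and 142 in clone 1, 202 in clone 2, 1 in clone 3 and 64.4 in pLKO, so that clone 3 was at the floor on both and at least 11.2-fold below pLKO on the first. The brightest IGFBP5 probe set, which is not a member, read 5745 in clone 1, 5775.5 in clone 2, 39 in clone 3 and 2709 in pLKO, with log2 differences of 1.71 in clone 1, 0.96 in clone 2 and -4.85 in clone 3. It missed the selection by the value in clone 2. IGFBP2 and IGFBP4, the other binding proteins with an eligible probe set, had log2 differences of -0.33 and -0.20 in clone 1 and of 0.25 and -1.32 in clone 2. LITAF, a protein of late endosomes, read 676 in clone 1, 1349 in clone 2, 68 in clone 3 and 459.7 in pLKO on its member probe set, while its other eligible probe set, with 462 in clone 1, 1818 in clone 2, 107 in clone 3 and 1221 in pLKO, was below pLKO in clone 1 after normalization (-0.65 on the log2 scale). EPS8, a substrate of the EGF receptor, the kinase PKN2 and PPP2R1B, a scaffold of protein phosphatase 2A, had folds between 2.18 and 2.75.

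Proteins of the cytoskeleton, the membrane cortex and trafficking were the most numerous, with 13 members and median folds of 2.89 in clone 1 and 2.43 in clone 2. MYH14, a heavy chain of non-muscle myosin II, was the only gene with 3 member probe sets, whose folds lay between 2.19 and 2.62 in clone 1 and between 2.01 and 2.71 in clone 2. The brightest of them read 319 in clone 1, 736 in clone 2, 107.5 in clone 3 and 193 in pLKO. The other heavy chain genes, MYH9 and MYH10, did not reach 2-fold in either clone. ACTN4, an actin crosslinker, gave 1168 in clone 1, 1521 in clone 2, 369 in clone 3 and 503 in pLKO, with folds of 3.78 in clone 1, 2.21 in clone 2 and 1.98 in clone 3. ANK3, which anchors membrane proteins to spectrin, gave 153 in clone 1, 291 in clone 2, 101 in clone 3 and 95 in pLKO, and was above pLKO on all 3 hairpin arrays. LMO7, a protein of cell junctions, read 320.1 in clone 1, 279.7 in clone 2, 17.6 in clone 3 and 91.5 in pLKO, so the 2 clones stood above pLKO (5.07-fold and 2.21-fold) and clone 3 stood 2.91-fold below it.

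MARCKS, which links actin to the plasma membrane, was the only member at least 3-fold above pLKO on all 3 hairpin arrays, but its probe sets disagreed. The member probe set gave 359 in clone 1, 660 in clone 2, 365 in clone 3 and 140.5 in pLKO, with folds of 3.86, 3.32 and 6.63 in clones 1, 2 and 3. The brightest by pLKO intensity of the other 4 eligible probe sets gave 323 in clone 1, 1409.5 in clone 2, 93.4 in clone 3 and 576 in pLKO, and the log2 differences over all 5 ran from -0.62 to 1.95 in clone 1 and from 0.27 to 1.73 in clone 2. EPN1, an adaptor of clathrin-coated pits, read 122 in clone 1, 113 in clone 2, 82.3 in clone 3 and 31 in pLKO, and was above pLKO on all 3 arrays. BASP1, a membrane protein related in function to MARCKS, was 2.89-fold and 2.73-fold above pLKO in clones 1 and 2 and 2.58-fold below it in clone 3. The remaining members of the group were ARHGDIB, ARHGAP18, KIF1C, MAGI3, FRYL and MISP.

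Proteins of transcription, chromatin and RNA made up 9 members, and these were mostly dim, with a median pLKO intensity of 63.4. ARID4B, a subunit of the SIN3 histone deacetylase complex, read 145.5 in clone 1, 166 in clone 2, 175 in clone 3 and 52.6 in pLKO, so that all 3 hairpin arrays exceeded pLKO, by 3.67-fold, 2.24-fold and 7.66-fold in clones 1, 2 and 3 on this probe set. The brighter of its eligible probe sets, not a member, read 173 in clone 1, 390.1 in clone 2, 72.6 in clone 3 and 193 in pLKO, with log2 differences of 0.41 in clone 1, 0.56 in clone 2 and -0.16 in clone 3. MKRN2, a RING finger protein, gave 121 in clone 1, 145 in clone 2, 97.5 in clone 3 and 51.5 in pLKO, with the same order of folds (3.10, 2.02 and 4.16). TRPS1, a GATA-type repressor of luminal breast cells, gave 102 in clone 1, 175 in clone 2, 69.6 in clone 3 and 49.3 in pLKO, and its other eligible probe set gave 479 in clone 1, 542 in clone 2, 262 in clone 3 and 234 in pLKO. The chromatin remodeller CHD3, the Polycomb protein PCGF5, DICER1, which cuts microRNA precursors, TOB2, FAM120A and BTBD2 had folds between 2.17 and 3.47.

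For 10 members no role is given here. FAM241A was the leading one, with 557.5 in clone 1, 1112 in clone 2, 359 in clone 3 and 268 in pLKO, above pLKO on all 3 hairpin arrays by 3.25-fold, 2.95-fold and 3.53-fold. LOC100190986 gave 111 in clone 1, 123 in clone 2, 108 in clone 3 and 35.9 in pLKO, likewise above pLKO throughout. TMEM150C gave 534 in clone 1, 1031 in clone 2, 61 in clone 3 and 369.7 in pLKO, and clone 3 was 2.54-fold below pLKO. The others were MB21D2, PGCKA1, C1orf115, C19orf33, ZC2HC1A, SMIM14 and LOC646214, with folds between 2.02 and 3.84 in the 2 clones.

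In clone 3 the members spread in both directions. Of the 79 probe sets, 46 were above pLKO after quantile normalization, where 43.5% of eligible probe sets were, but only 22 were above it as deposited (against 9.61% of eligible probe sets) and 32 after median centring (against 21.9%), so the direction of many depends on the scaling. At least 2-fold above pLKO were 23 probe sets of 23 genes (29.1%), against 15.6% of eligible probe sets. At least 2-fold below were 16 probe sets of 15 genes (20.3%), against 27% of eligible probe sets. This balance turned round under the other scalings, with 4 at least 2-fold above and 37 at least 2-fold below as deposited, and 11 above and 22 below after median centring. The median log2 difference of the members in clone 3 was 0.32, against -0.19 over all eligible probe sets. As deposited it was -0.95 against -1.52, and with median centring -0.32 against -0.89. Single values ran from -3.49 for IGFBP5, at the floor, to 2.94 for the member probe set of ARID4B, whose brighter probe set was at -0.16, and 5 probe sets were at the floor in clone 3. The 3′ to 5′ ratios of the clone 3 array were the highest of the series, and their part in these values was not tested.

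The role groups differed in clone 3. Of all eligible probe sets, 43.5% were above pLKO in clone 3 after quantile normalization, 15.6% at least 2-fold above and 27% at least 2-fold below. All 9 genes of transcription, chromatin and RNA were above pLKO there after quantile normalization, 6 of them at least 2-fold, with a median log2 difference of 1.39, while 5 of the 9 were above it as deposited and 8 after median centring. This holds for the member probe sets only: by the brightest eligible probe set of each gene, the one with the highest mean log2 value over the arrays, 5 of the 9 were above pLKO in clone 3, and ARID4B (-0.16), CHD3 (-0.52), FAM120A (-0.84) and PCGF5 (-0.19) were below it on the log2 scale. In the cytoskeletal group 11 of 13 genes were above pLKO in clone 3 and 5 reached 2-fold (median 0.62), while 5 were above it as deposited and 8 after median centring. Among the receptors, ligands and signalling proteins 4 of 12 were above pLKO and 1, PKN2, reached 2-fold, while 4 were at least 2-fold below (median -0.49), and 1 was above pLKO as deposited and 2 after median centring. The proteins of glandular and surface epithelium had 5 of 12 above pLKO, 2 of them, CD24 and CSTA, at least 2-fold, and 4 at least 2-fold below (median -0.09), with 2 above pLKO both as deposited and after median centring. In the metabolic group 5 of 10 were above pLKO and 2, CROT and HS6ST3, reached 2-fold (median 0.17), while 2 were above it as deposited and 4 after median centring. By counts above pLKO after quantile normalization, the signalling, glandular and metabolic groups lay near the share of all eligible probe sets. Lists of genes related to the transcription group, mostly not members, also leaned upward. Median log2 differences in clone 3 were 0.57 for chromatin regulators, 0.55 for genes with ZNF symbols and 0.46 for splicing factors. The histone list was at -0.24, against -0.19 over all eligible probe sets. The groups were formed after the members were known, and the difference between them was not tested.

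**Figure D3:**
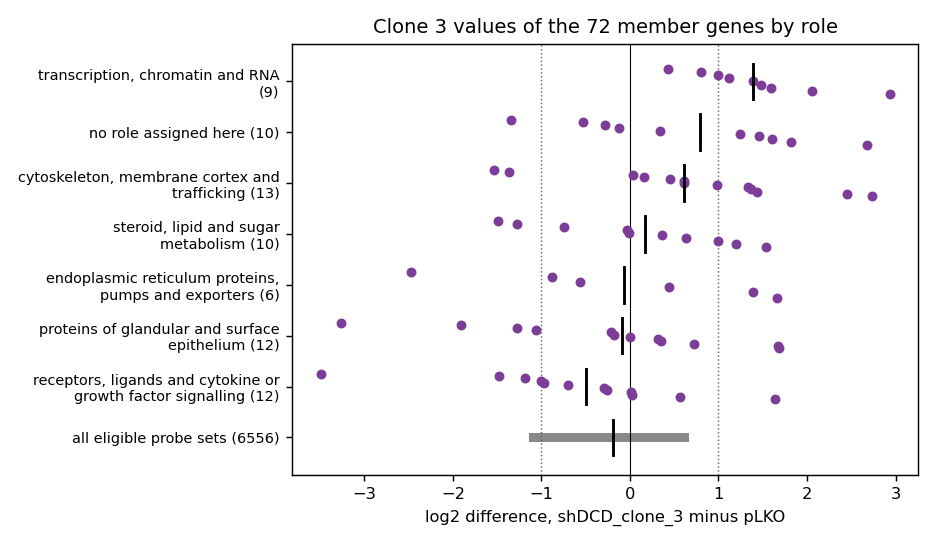
Log2 difference of the clone 3 array from pLKO for the 72 member genes (purple points, by the leading member probe set) in their role groups, with the group median as a black bar and the number of genes in brackets. The bottom row gives the median and the middle 50% of all 6556 eligible probe sets. All 9 transcription, chromatin and RNA genes lie right of 0 by these probe sets on the quantile normalized scale, where 5 do as deposited and 5 do by each gene's brightest eligible probe set, and the signalling group has the lowest median, -0.49.

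Clones 1 and 2 did not raise the members equally. The 2 log2 differences lay within 0.5 of each other for 59 of the 79 probe sets. For 10 probe sets of 8 genes the difference was larger in clone 2 by 0.5 or more, namely UGT2B28, UGT2B15, PKIA, PIP, SOCS2, CLIC3, CSTA and ATP2A3, which include glandular, steroid and signalling members. For 10 probe sets of 10 genes it was larger in clone 1 by 0.5 or more, namely LMO7, EPN1, ACTN4, BCAP29, ZC2HC1A, LOC100190986, ARID4B, PCGF5, CHD3 and MKRN2, of which 4 belong to the transcription, chromatin and RNA group. Of the probe sets larger in clone 2, 1 was at least 2-fold above pLKO in clone 3 and 4 were at least 2-fold below, with a median log2 difference of -0.23. Of those larger in clone 1, 6 were at least 2-fold above and 1 was at least 2-fold below, with a median of 1.64. The split by 0.5 was not counted over all eligible probe sets. A 2-fold threshold in 1 clone, whatever the fold in the other, gave sets that leaned the same ways in clone 3. The 497 probe sets that passed it in clone 1 had a median log2 difference of 1.16 in clone 3. For the 163 that passed it in clone 2 the median was -0.28. Both sets hold all 79 members, so these medians do not show the direction outside the members. Clone 1 had higher 3′ to 5′ ratios than clone 2, as given above, and the part of RNA quality in this split was not tested.

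Most member genes rest on 1 probe set. A single member probe set stood for 66 genes, while UGT2B15, PKIA, EFNB2, ALCAM and IGFBP5 had 2 and MYH14 had 3, and 17 genes have only 1 probe set on the array. Among the 38 further eligible probe sets of 25 member genes, 32 were above pLKO in both clones, against 38.3% of all eligible probe sets, and 1, of SMIM14, was below it in both. These 38 passed the intensity minimum in clones 1 and 2. Of all 126 further probe sets, dim ones included, 63 were above pLKO in both clones, 63 were not, and 27 of these showed no difference because both clones and pLKO were at the floor. The median log2 differences of the 38 were 0.61 in clone 1 and 0.59 in clone 2, against 0.13 and 0.04 for the eligible probe sets outside the set. At least 2-fold above pLKO were 11 of the 38 in clone 1 and 6 in clone 2. Of the eligible probe sets outside the set, 6.61% were in clone 1 and 1.44% in clone 2. None was 2-fold in both, which the selection fixes, because any that were would be members. Of the 25 genes with a further eligible probe set, 20 had all of the further ones above pLKO in both clones, and the exceptions were CHD3, FAM120A, LITAF, MARCKS and SMIM14. Probe sets of 1 gene share its transcripts and are not replicates of a condition.

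**Figure D4:**
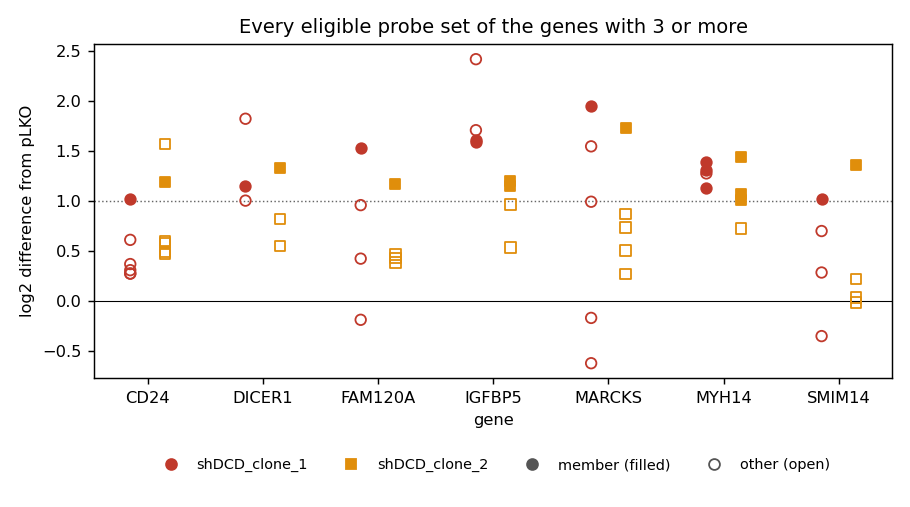
Log2 difference from the pLKO array in clone 1 (circles) and clone 2 (squares) for every eligible probe set of the 7 member genes with 3 or more, with members filled and other probe sets open, and a dotted line at 2-fold. MARCKS, FAM120A and SMIM14 have probe sets on both sides of 0, while every probe set of CD24, DICER1, IGFBP5 and MYH14 lies above it.

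The members were also set against the gene lists drawn up for this cell line. These lists were drawn up with earlier results of these data known, so their counts are not independent support. Over all genes, 1.62% of 4741 were at least 2-fold above pLKO in both clones, and 2.66% of 6274 with enough signal in pLKO were at least 2-fold below. Of the milk and secretory proteins, 3 of 10 eligible genes were members (PIP, CEACAM6 and CD24), and 3 of 10 with enough signal in pLKO were at least 2-fold below in both clones. CEACAM6 and CD24, which are surface proteins, passed by 1 of 2 and 1 of 6 eligible probe sets. The cytoskeleton and trafficking list had 2 of 24 (ANK3 and ACTN4), the solute carriers 2 of 71 (SLC35D1 and SLC40A1), the PI3K, Ras and protein kinase list 1 of 17 (PIK3R3), the chromatin regulators 1 of 25 (ARID4B) and the genes with TMEM symbols 1 of 66 (TMEM150C). No eligible gene was a member in the lists of FoxO and growth-arrest genes (12 eligible), histones (11), oestrogen receptor and luminal genes (17), fatty acid oxidation and peroxisome genes (11), lysosome and autophagy genes (14) or Wnt, Notch and TGF-beta genes (12). The same held for ubiquitin ligases (16), splicing factors (25), ZNF genes (55) and LINC transcripts (9). The lists are not complete: CROT, a peroxisomal enzyme, and PPT1, a lysosomal one, are members that the peroxisome and lysosome lists do not hold. The genes set aside by the selection are not counted as members in any list. TXNIP, PPP3CA, GATA3, CDK6 and CAMK2D nevertheless passed the 2-fold threshold and are counted in the 1.62%. A list without a member can therefore still hold a gene that passed.

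By position and structure the members were scattered over 21 chromosomes. Chromosome 19 held 9 of the 72 (12.5%), against 5.82% of eligible genes. The median gene span was 51.2 kb, against 28.9 kb over eligible genes. Probe sets with the suffix for shared probes made up 13.9% of member probe sets, against 11.97% of eligible ones.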

How the data were processed

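RNA of 4 MDA-MB-361 lines was measured on Affymetrix U133 Plus 2.0 arrays. Each deposited value is the linear intensity of a probe set on an array. The published methods name dChip for the array analysis. Which program wrote the deposited values was not stated in the sources read. Zeros (2 in all) were set to 0.1, and the log2 of the deposited intensity was quantile normalized over the 4 arrays and floored at 16, since array medians differed. Of 54675 probe sets, 41097 were annotated to 1 gene, 1801 to several and 11777 to none here. Symbols were updated by gene identifier for 41043, through a RefSeq table (GRCh38.p14) used for names and for which genes neighbour each other.

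Members needed at least 2-fold over pLKO and an intensity of at least 100 in clones 1 and 2. A member gene is given by its probe set with the largest smaller fold. Genes were named by a rule: the 15 leading genes, those with several member probe sets, up to 4 per gene list, the 5 highest and 5 lowest in clone 3 above the floor, those next to the threshold and the 4 brightest in pLKO, 36 member genes in all. Other members are named to account for the set, chosen after their values were seen. Members and lists were chosen with earlier results of these data known, and role groups and families were assigned after the members were seen. With 1 array per group no test was run, and the share of all eligible probe sets past the same threshold is given instead. The signal over background limits precision: between 39.3% and 55.1% of probe sets read under 16. The selection was tested only on simulated arrays, where changes larger than 2-fold were placed in bright probe sets with equal noise on each array. That does not show how well dim members or 2-fold changes are recovered on arrays of unlike RNA quality. Alternatives were other scalings, floors, thresholds and choices of probe set. Python 3.11.15, pandas 2.3.3, numpy 2.4.6 and matplotlib 3.10.9 were used.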

Additional observations from a re-analysis of the deposited data

Results flagged for a closer look

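For 7 of the 36 members named by the rule, clones 1 and 2 were both at least 2-fold above pLKO while clone 3 was at least 2-fold below it. The log2 difference in clone 3 was -3.26 for CALML5, -1.91 for CLIC3, -1.54 for LMO7, -1.49 for STS, -1.48 for LITAF, -1.34 for TMEM150C and -1.28 for PSCA. The naming rule took in CALML5, CLIC3, LMO7, STS and LITAF for their low clone 3 values, STS also as a leading gene. Membership fixed the direction in clones 1 and 2, so the count follows in large part from the selection. These opposite directions rest on 1 array per line and were not tested, and 27% of eligible probe sets were at least 2-fold below pLKO in clone 3. IGFBP5, whose clone 3 value was at the floor, is not among the 7.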

How the results depend on the processing

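The members depend on the thresholds and on the scaling. With an intensity minimum of 50, 149 genes (161 probe sets) passed, and with 200, 37 genes (40 probe sets). A 3-fold threshold left 12 genes (13 probe sets), and a 1.5-fold threshold gave 309 genes (353 probe sets). With the 2-fold threshold asked of clone 1 only, whatever the fold in clone 2, 427 genes (497 probe sets) passed. Asked of clone 2 only, 145 genes (163 probe sets) passed, and asked of all 3 clones, 23 genes (23 probe sets). The median log2 difference of the members in clone 3 was -0.066 with the minimum of 200, where 15% of probe sets were at least 2-fold above pLKO, and -0.030 with the 3-fold threshold. As deposited, 59 genes passed, 30 of them members, and with median centring 50 passed, 34 of them members. Quantile normalization without clone 3 gave 85 genes, 71 of them members, and the brightest probe set of each gene gave 54. Averaged over all its probe sets, LMO7 differed from pLKO in clone 3 by 0.0029 on the log2 scale. All 36 named members stayed above pLKO in clones 1 and 2 under other scalings, other floors and the mean of all probe sets, but fewer reached 2-fold: 21 in clone 1 as deposited, 22 in clone 1 with median centring, and 23 in clone 1 and 20 in clone 2 with the mean of all probe sets. The 36 were chosen on these same intensities, so their staying above pLKO follows in large part from the selection. By the brightest eligible probe set of each gene, a choice made after seeing the data, 35 stayed above pLKO in clone 1, the exception being LITAF (-0.65), and ARID4B was at -0.16 in clone 3. No paired analysis was possible because each group has 1 array. Low signal limits clone 3, where 55.1% of probe sets read under 16.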
